A study of Mus musculus with 8 samples.

Results

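The comparison sets RNA bound to polysomes against total RNA in brain and neural tube tissue from Lin28a and Lin28b double knockout (dKO) mouse embryos. Its members are the 5802 genes that have a row in both deposited count tables, out of 24420 rows in the total RNA table and 5804 in the polysomal table. Of these, 5761 had enough counts in the dKO libraries to be tested. The study measured total and polysomal RNA by strand-specific RNA sequencing in 2 genotypes at E11.5, with 2 libraries in each of 4 groups. The dKO group carries the genotype Lin28a-/-;b-/-, and its libraries are 2 of total RNA and 2 of polysomal RNA. The wildtype (WT) group of the same age has 4 libraries of its own in the same layout and serves here only as a reference. No treatment is named in the labels. Nothing in them tells if the 2 replicates of a group are different embryos, pools or litters, so p-values cover the spread between libraries, possibly technical, and no more. The labels give the tissue as brain and the protocol speaks of neural tube.

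Ribosomes that translate the same messenger RNA sit on it one behind the other and form a polysome, which sediments faster than a free RNA. RNA recovered with polysomes is enriched for messages under translation, while nuclear and other untranslated RNAs are left behind. Lin28a and Lin28b are RNA-binding proteins of early progenitor cells. They keep precursors of let-7 microRNAs from being processed, and they have direct messenger RNA targets as well.

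The 4 dKO libraries held 10484484 and 10379456 counts over the shared genes in total RNA, and 3740247 and 5164196 in polysomal RNA. The polysomal table lists only part of the transcriptome, so its sums are not the depth of those libraries. Total RNA replicates were close, with a biological coefficient of variation of 0.0383. The coefficient was 0.150 between the polysomal replicates, and their chi-square statistic per degree of freedom was 24.97, against 2.89 in total RNA. Neural markers were abundant in both fractions: Sox2, a transcription factor of neural progenitors, was at 388 and 388 CPM in total RNA and 401 and 348 CPM in polysomal RNA, and the neuronal tubulin gene Tubb3 at 971 and 976 CPM in total RNA and 1063 and 989.7 CPM in polysomal RNA. CPM, the usual depth-scaled unit of counts, use the TMM-corrected sum over the shared genes. Neither gene passed the test between fractions (Sox2 -0.05, adjusted p = 0.562; Tubb3 0.08, adjusted p = 0.272, edgeR quasi-likelihood test). When a library is left out, 1 fraction has a single library and the spread comes from the pair of the other fraction alone, so calls gained without a polysomal library rest on the small spread of total RNA and calls lost without a total library on the larger spread of polysomal RNA. In such fits Sox2 was at -0.16 and called without polysomal replicate 1, and Tubb3 was at 0.11 and called without polysomal replicate 2. With an offset for transcript GC content, Tubb3 was at -0.77 and called (adjusted p = 2.55e-05).

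The property that went most closely with the dKO difference was base composition, so a few coding sequences are shown first, with G and C in capitals. Each is the first 90 coding bases in GENCODE M21 (GRCm38), read on the coding strand, of a gene described further on. They were picked after the values were seen. Rpl39 (minus strand, chromosome X from 37082520 to 37085402) was lower on polysomes, and Cebpa (plus strand, chromosome 7 from 35119293 to 35121928) and Hes6 (minus strand, chromosome 1 from 91411483 to 91414038) were higher.
Rpl39: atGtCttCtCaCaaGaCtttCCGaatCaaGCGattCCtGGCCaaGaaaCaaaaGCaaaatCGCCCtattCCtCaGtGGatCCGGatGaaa
Cebpa: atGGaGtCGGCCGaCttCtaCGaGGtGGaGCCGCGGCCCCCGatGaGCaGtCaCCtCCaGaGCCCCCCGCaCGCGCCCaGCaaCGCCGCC
Hes6: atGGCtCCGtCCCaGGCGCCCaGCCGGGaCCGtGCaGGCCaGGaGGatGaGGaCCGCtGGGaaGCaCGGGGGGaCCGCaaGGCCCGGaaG
G and C make up 44.4% of the stretch in Rpl39, 72.2% in Cebpa and 73.3% in Hes6. Over the whole transcript the shares are 48.7%, 62.6% and 60.3%.

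Most genes of the table differed between the fractions in dKO. At an adjusted p below 0.05, 4884 of 5761 genes (84.8%) were called, 2398 of them (41.6%) above and 2486 (43.2%) below their total RNA level on polysomes. By at least 1 on the log2 scale, 972 were higher and 1079 lower. The median log2 difference was -0.11, with quartiles of -0.81 and 0.81 and an SD across genes of 1.22. For 5439 genes the polysomal and total RNA libraries did not overlap. In WT tissue the same comparison called 1981 of 5739 genes (34.5%), with 945 (16.5%) higher and 1036 (18.1%) lower, and the SD across genes was 0.27. The median absolute log2 difference of the called genes was 0.90 in dKO and 0.25 in WT.

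The dKO differences formed a pair of humps. The sources used here do not say how the genes of the polysomal table were chosen, and they fall into 2 sets. When genes averaging fewer than 100 polysomal counts are set aside, the log2 ratio of dKO to WT polysomal counts is below -2.04 in 2927 genes and above -1.71 in 2512, and no gene lies in the gap. All tested genes, those with fewer counts included, were put in a lower and an upper set at the middle of that gap. The ratio and the dKO difference share the dKO polysomal libraries, so the direction of a set follows in part from the split. The lower set of 3033 tested genes had a median polysomal to total difference of -0.78 in dKO, with 2451 lower and 29 higher. The upper set of 2728 had a median of 0.84, with 2369 higher and 35 lower. Counts of calls in dKO are therefore conditional on a list that lacks genes in the middle, and the zero of the scale is set by that list. Fewer polysomes per cell and less of a message on each cannot be told apart, since no count of cells or yield of RNA was used here.

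**Figure D1:**
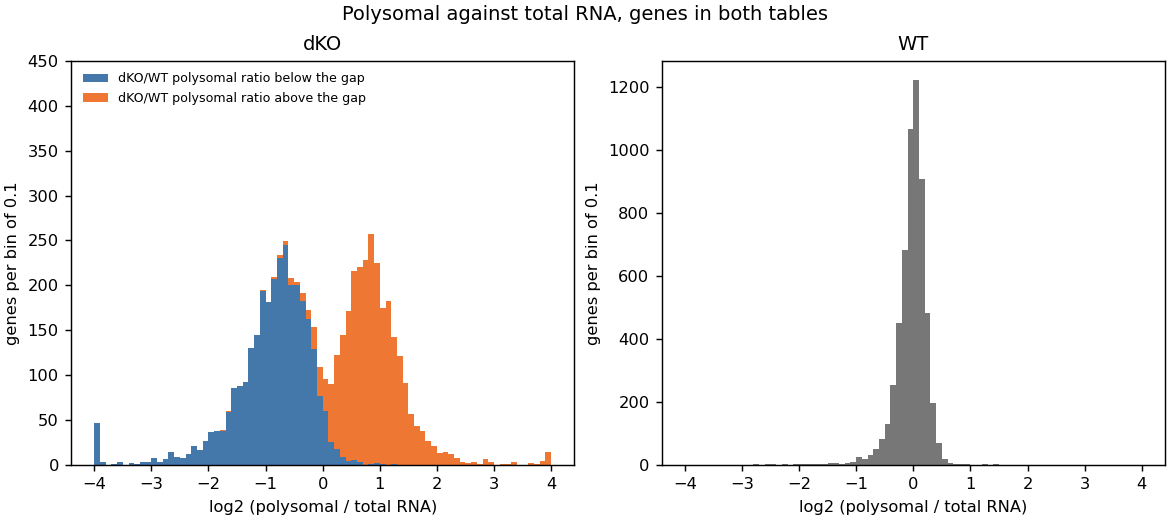
Number of genes per bin of 0.1 in the log2 ratio of polysomal to total RNA, in dKO (left, coloured by which side of the gap the dKO to WT ratio of polysomal counts falls) and in WT (right), with values beyond -4 and 4 in the end bins and different vertical scales. The dKO genes form 2 humps around -0.78 and 0.84, and the WT genes a narrow peak near 0.

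Within this list, GC-rich messages were over-represented on dKO polysomes and AT-rich messages under-represented. Genes were put in 10 bins of equal size by transcript GC content. In the lowest bin (31.0% to 40.8%, 573 genes) the median log2 difference was -1.24, and 548 were lower and 8 higher. In the highest bin (59.7% to 78.9%, 573 genes) it was 1.07, and 517 were higher and 16 lower. The medians rose at each step between these ends. Across 5728 genes Spearman's rho of the difference with transcript GC content was 0.78, and it was 0.75 with the GC content of the coding region and 0.66 with that of the 3′ untranslated region. These genes share the same 4 libraries and are not independent replicates. Each polysomal library showed the relation by itself (rho 0.78 and 0.77 against the total RNA mean). The difference between the 2 polysomal replicates also went with GC content (rho 0.35), and that between the total RNA replicates less so (0.10). The lower and upper sets had median transcript GC contents of 44.3% and 56.3%, and within them rho was 0.45 and 0.33. Like the counts of calls, the rho of 0.78 is conditional on a list that lacks genes in the middle. In WT the rho over both sets was -0.22, and the lowest and highest bins had medians of 0.03 and -0.09. Transcript length (rho -0.11), coding length (0.09), number of exons (-0.04) and total RNA level (-0.20) went with the dKO difference far less, and the 3′ untranslated length had a rho of -0.24.

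Because of this relation, each gene list is given both as fitted and with transcript GC content as an offset, a setting chosen after the data were seen. The offset reduced the calls from 4884 to 2552 (44.3%), with 1445 higher (25.1%) and 1107 lower (19.2%), and moved the median of all genes by 0.18 to 0.06. Of the genes called both ways, 1549 kept their direction and 591 changed it. Counts of members higher and lower in each list below have to be read against the shares of all genes tested. Those were 41.6% and 43.2% as fitted, and 25.1% and 19.2% with the offset. Both dKO polysomal libraries carry the relation, so within dKO the fraction and the GC relation cannot be told apart. Leaving out the scaling factors moved the median of all genes by -0.13.

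**Figure D2:**
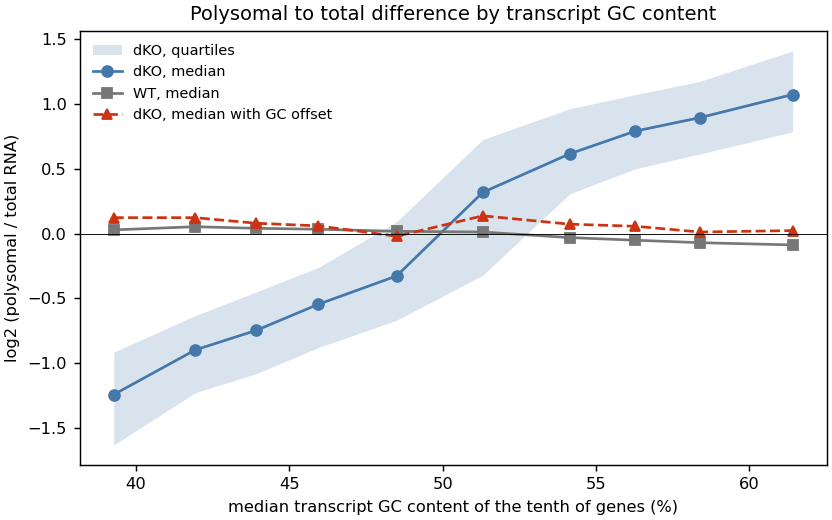
Median log2 ratio of polysomal to total RNA in 10 bins of genes by transcript GC content (%), for dKO with its quartiles as a band, WT, and dKO with the GC offset. The dKO medians go from -1.24 to 1.07, while the WT medians stay between 0.05 and -0.09.

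The largest rises on dKO polysomes, where genes averaged 5 CPM or more, were those of Rn45s, Lars2 and Mir6236. Rn45s, the ribosomal RNA precursor, was at 1515 and 1443 CPM in total RNA and 103623 and 46134 CPM in polysomal RNA, a log2 difference of 5.66 ± 0.38 (adjusted p = 4.62e-05). Lars2, the mitochondrial leucyl-tRNA synthetase gene (chromosome 9 from 123366927 to 123462666), was at 68.5 and 66.9 CPM in total RNA and 5430 and 2594 CPM in polysomal RNA (5.89 ± 0.36), and Mir6236 (chromosome 9 from 110281287 to 110281409) at 13.7 and 14.7 CPM in total RNA and 2558 and 1194 CPM in polysomal RNA (7.04 ± 0.41). Both polysomal libraries were far above both total RNA libraries in all 3, and polysomal replicate 1 was above replicate 2. Without polysomal replicate 1 the log2 differences were 4.96 for Rn45s, 5.26 for Lars2 and 6.39 for Mir6236. Together these rows took 10.3% and 4.96% of the counts in dKO polysomal RNA and 0.167% and 0.159% in dKO total RNA, and from 0.117% to 0.316% in the WT libraries. In WT all 3 were lower on polysomes: Rn45s at -1.44 ± 0.03, Lars2 at -0.67 ± 0.08 and Mir6236 at -1.03 ± 0.22 on the log2 scale. The difference between the genotypes (interaction, log2) was 7.10 ± 0.40, 6.55 ± 0.40 and 8.06 ± 0.66. How reads that map to several places were counted is not given in the sources used here, so the values of these rows are uncertain. Their share differed between the dKO fractions, and its part in the other differences was not tested. Leaving out the 3 rows left the counts of calls at 2398 higher and 2486 lower.

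**Figure D3:**
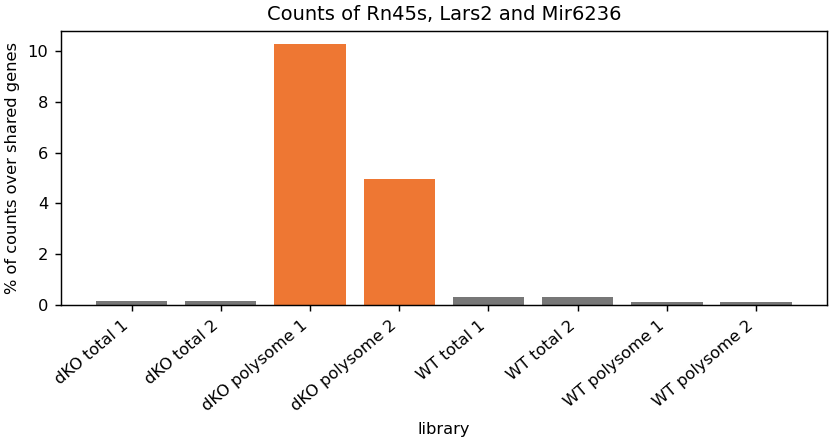
Share of counts over the shared genes (%) that fell on Rn45s, Lars2 and Mir6236, 1 bar per library, with the dKO polysomal libraries in orange. Those bars stand at 10.3% and 4.96%, and the other 6 libraries are all below 0.32%.

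By the rule for named genes, the 15 largest rises and falls averaged 5 CPM or more without overlap of the fractions. After Mir6236, Lars2 and Rn45s, the largest rises were of Hoxc9 and Hoxc10, homeobox genes of the posterior spinal cord. Hoxc10 was at 1.002 and 0.829 CPM in total RNA and 14.8 and 11.3 CPM in polysomal RNA (3.80 ± 0.44, adjusted p = 2.67e-04), with an interaction of 3.96 ± 0.79. Hoxc9 was at 0.546 and 1.29 CPM in total RNA and 20.4 and 7.01 CPM in polysomal RNA (3.84 ± 0.69), and at 2.92 without polysomal replicate 1 and 4.58 without total replicate 2. Both were near absent from total RNA and clearly counted on polysomes. Cebpa, a C/EBP factor, was at 4.92 and 3.69 CPM in total RNA and 35.5 and 21.6 CPM in polysomal RNA (2.71 ± 0.35, interaction 2.61 ± 0.43). Cebpd, its relative, rose by 2.41 ± 0.40 and Bcl6, a transcriptional repressor, by 2.39 ± 0.42. Stc2, a secreted glycoprotein induced by stress, was at 2.64 and 2.58 CPM in total RNA and 22.1 and 15.8 CPM in polysomal RNA (2.84 ± 0.35, interaction 2.61 ± 0.47). Exosc6, a subunit of the RNA exosome, was the most abundant protein-coding gene of the group apart from Lars2, at 35.3 and 26.6 CPM in total RNA and 176 and 139.7 CPM in polysomal RNA (2.34 ± 0.18, adjusted p = 6.66e-05). Its WT difference was 0.03 ± 0.09, and the interaction was 2.31 ± 0.21. Dusp5, a phosphatase of ERK kinases, rose by 2.40 ± 0.39, Trem2, a receptor of myeloid cells, by 2.56 ± 0.43, and Adssl1, an enzyme of purine synthesis, by 2.47 ± 0.63. Adssl1 was not called without total replicate 2 (adjusted p = 0.0734) and was at 1.52 without polysomal replicate 2. Among small RNAs, Snord17 rose by 2.84 ± 0.27 and Mir320 by 3.61 ± 0.73, the latter at 2.62 without polysomal replicate 1. Hoxc9, Mir320, Trem2 and Adssl1, among others of the 15, averaged below 5 CPM in total RNA and passed that minimum through the polysomal libraries. With the GC offset Cebpa was at 1.59 and Exosc6 at 1.15, and Rn45s has no GC value and took no offset.

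The largest falls were of noncoding RNAs and protein-coding messages of varied function. Apart from Ap3s1, those named here averaged below 5 CPM in polysomal RNA and passed that minimum through the total RNA libraries. The sizes of their falls thus rest on few polysomal counts. Gt(ROSA)26Sor, the noncoding transcript of the Rosa26 locus, is annotated as antisense to another gene, and the strand setting of the counting is not given. It was at 62.3 and 53.4 CPM in total RNA and 0.873 and 2.14 CPM in polysomal RNA (-5.14 ± 0.33, adjusted p = 4.07e-05). It was also lower on WT polysomes, at -0.97 ± 0.10, and the interaction was -4.17 ± 0.33. Snhg3, a host gene of small nucleolar RNAs, had 163 and 173 counts in total RNA and 0 and 3 in polysomal RNA. Summed over replicates that is 44.0-fold lower, with an exact 95% interval of 14.9 to 214 that covers counting error only. Pigf, an enzyme of glycolipid anchor synthesis, was at 39.8 and 35.3 CPM in total RNA and 1.16 and 1.95 CPM in polysomal RNA (-4.52 ± 0.32, adjusted p = 5.00e-05). In WT it was at -0.27 ± 0.11, and the interaction was -4.25 ± 0.30. Ap3s1, a subunit of a vesicle adaptor complex, was the most abundant of the falls at 115 and 119.5 CPM in total RNA and 11.6 and 11.7 CPM in polysomal RNA (-3.33 ± 0.15, adjusted p = 2.99e-05). Its 4 values were close within each fraction and far apart between them, and its WT difference was -1.63 ± 0.09 (interaction -1.70 ± 0.17). Zxda, a zinc finger gene annotated as a pseudogene, fell by 4.43 ± 0.37, and Anapc10, a subunit of the anaphase-promoting complex, fell by 4.08 ± 0.53. The complex I subunit genes Ndufa12 and Ndufb4 were lower, at -3.06 ± 0.46 and -3.01 ± 0.46. Ahr, the aryl hydrocarbon receptor, fell by 3.11 ± 0.49, Lactb2 fell by 3.02 ± 0.45, Mpv17l fell by 2.999 ± 0.39 and Ogn, a small matrix proteoglycan, fell by 3.11 ± 0.46. Ankdd1b and the histone gene Hist1h2ad had no counts in polysomal replicate 1 and 7 and 9 in replicate 2, so their differences of -3.88 and -3.81 rest on few reads. Without polysomal replicate 1 they were -3.13 and -3.05. Anapc10 was at -3.44 without polysomal replicate 1 and at -6.39 without polysomal replicate 2. With GC content as an offset Ogn was at -1.36 and not called (adjusted p = 0.0624).

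**Figure D4:**
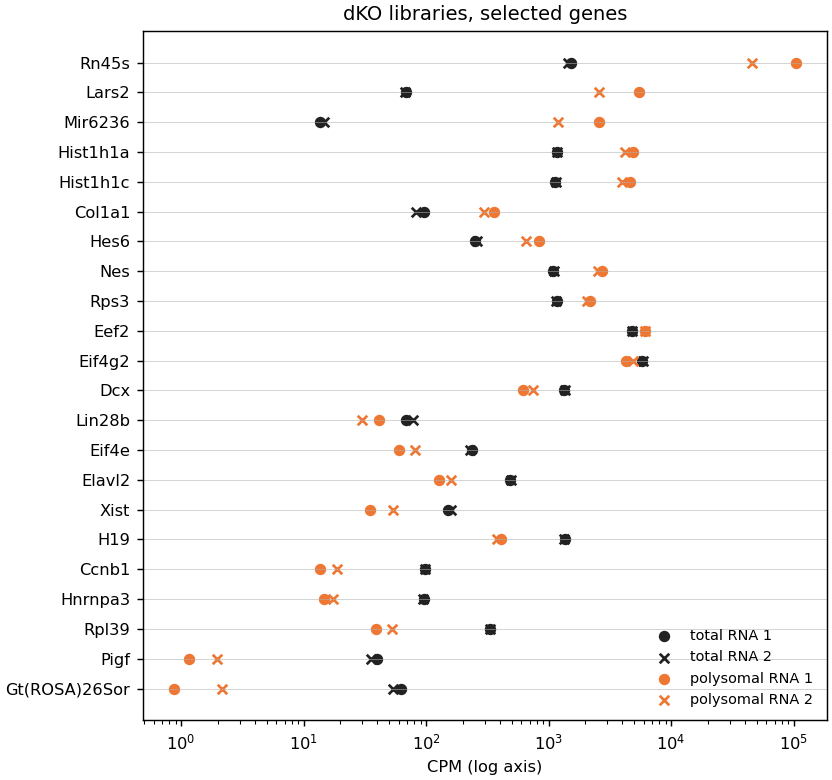
CPM (log axis) of selected genes in the 4 dKO libraries, total RNA in black and polysomal RNA in orange, with circles for replicate 1 and crosses for replicate 2. Rn45s, Lars2 and Mir6236 lie far to the right on polysomes, linker histone and progenitor genes lie above their total RNA levels, and genes from Eif4g2 down lie below them.

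The protein synthesis machinery did not move as 1 group. Among large-subunit ribosomal proteins, 18 of 49 had a row in both tables. Of 18 tested members, 10 were higher and 8 lower on polysomes, with a median log2 difference of 0.22. Under the GC offset 5 were higher and 10 lower, and the median was -0.31. Rpl39, one of the smallest ribosomal proteins, was at 334 and 332 CPM in total RNA and 39.3 and 52.4 CPM in polysomal RNA (-2.84 ± 0.13, adjusted p = 2.99e-05). Its polysomal level lay below total RNA in both replicates, its WT difference was 0.13 ± 0.04 and the interaction was -2.96 ± 0.13. Once GC content was an offset, it was -2.58. Rpl8 was at 1758 and 1849 CPM in total RNA and 2519 and 2616 CPM in polysomal RNA (0.51 ± 0.06), and at -0.36 with the offset. Rpl10 had 64 and 71 counts in total RNA and 0 and 0 in polysomal RNA, so it was at least 17.7-fold lower on polysomes, taking a floor of 3 counts over both libraries. Rpl17 was at 6.74 and 7.65 CPM in total RNA and 0.291 and 0.779 CPM in polysomal RNA (-3.60 ± 0.58). Small-subunit genes had 15 of 33 members in both tables. Of 15 tested members, 9 were higher and 5 lower on polysomes, with a median log2 difference of 0.44. Adjusted for GC content, 5 were higher and 7 lower, and the median was 0.18. Rps3 rose by 0.86 ± 0.06 (1.17 with the offset) from 1165 and 1156 to 2178 and 2040 CPM, and Rps6 fell by 2.40 ± 0.29. Processed pseudogenes of ribosomal protein genes are common, so low counts such as those of Rpl10 and Rps6 are uncertain.

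Translation factors were more often lower. Of 28 tested members, 8 were higher and 19 lower on polysomes, with a median log2 difference of -0.35. On the GC-adjusted scale 8 were higher and 12 lower, and the median was -0.08. Eif4e, which binds the cap of messenger RNAs, was at 235 and 227 CPM in total RNA and 60.5 and 80.5 CPM in polysomal RNA (-1.70 ± 0.14, adjusted p = 7.43e-05), and at -0.54 with the offset. Eif2s3x, a subunit of the factor that brings the initiator tRNA, fell by 2.51 ± 0.53 and was at -1.84 without polysomal replicate 1 and -4.68 without polysomal replicate 2. The elongation factor gene Eef2 was higher, at 4763 and 4835 CPM in total RNA and 6094 and 6084 CPM in polysomal RNA (0.34 ± 0.05), and turned to -0.44 with the offset. Eif4g2, a scaffold of initiation, was lower (-0.34 ± 0.07) and turned to 0.55. For ribosome biogenesis, 5 of 25 tested members were higher and 13 lower (median -0.26, and 0.18 with the GC offset). Nop10, part of the enzyme that modifies ribosomal RNA, was at 97.3 and 98.0 CPM in total RNA and 22.4 and 22.0 CPM in polysomal RNA (-2.14 ± 0.14). The nucleolar protein gene Npm1 fell by 1.32 ± 0.08, and Ncl, which encodes nucleolin, fell by 0.25 ± 0.07 without a call when either total replicate was left out (adjusted p = 0.119 and 0.192). Of the aminoacyl-tRNA synthetases, which load tRNAs with amino acids, 7 of 14 tested members were higher and 4 lower (median 0.44, and 0.31 with the GC offset). Apart from Lars2, Sars2 rose by 1.62 ± 0.23 and Vars by 1.08 ± 0.08, with Vars at 0.07 and not called with the offset.

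**Figure D5:**
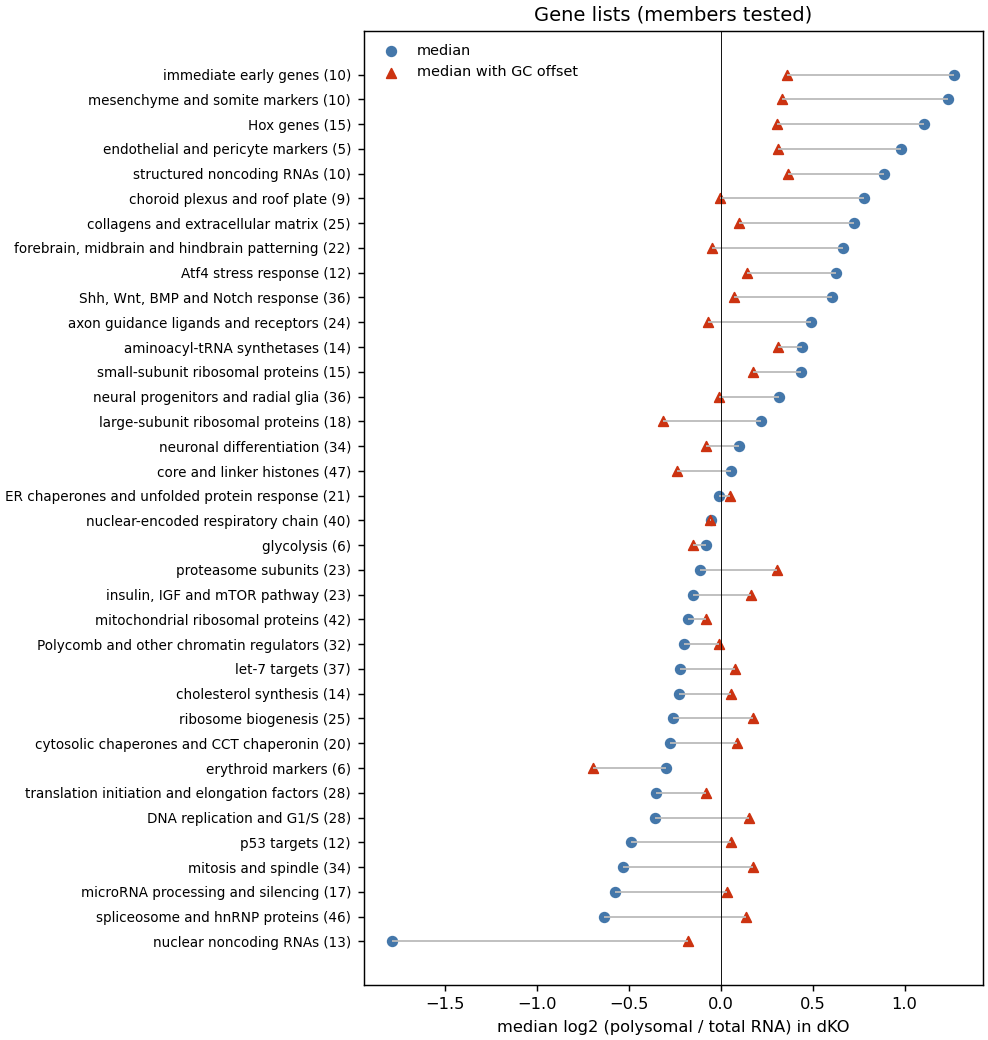
Median log2 ratio of polysomal to total RNA in dKO for each gene list with at least 5 tested members (number in parentheses), as fitted (circles) and with transcript GC content as an offset (triangles). The medians run from -1.79 for nuclear noncoding RNAs to 1.27 for immediate early genes, and from -0.69 to 0.37 with the offset.

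For the nuclear-encoded respiratory chain, 17 of 40 tested members were higher and 15 lower (median -0.05, and -0.06 with the GC offset), shares near those of all genes tested (41.6% and 43.2%). Atp5e, the small epsilon subunit of ATP synthase, was at 429 and 413 CPM in total RNA and 1018 and 934 CPM in polysomal RNA (1.21 ± 0.07, adjusted p = 3.47e-05). In WT it was lower on polysomes, at -0.37 ± 0.04, and the interaction was 1.58 ± 0.08. Cox4i1, a subunit of cytochrome oxidase, was at 0.67 ± 0.08, and at -0.18 with the offset. Mitochondrial ribosomal proteins had 15 of 42 higher and 10 lower (median -0.18, and -0.08 with the GC offset), from Mrpl42 at -2.29 ± 0.17 to the abundant Mrpl12 at 1.41 ± 0.08.

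Messages for mitosis were lower or not called. Of 34 tested members, 0 were higher and 22 lower on polysomes, with a median log2 difference of -0.53. With the GC offset 10 were higher and 6 lower, and the median was 0.18. Of all genes tested, 41.6% were higher and 43.2% lower as fitted, and 25.1% and 19.2% with the offset. The counts with the offset are near those shares. Without the offset, edgeR, DESeq2 and limma-voom each called 0 members higher, and 0 were higher at an unadjusted p below 0.05 (edgeR). Ccnb1, the cyclin that drives entry into mitosis, was at 97.1 and 97.5 CPM in total RNA and 13.7 and 18.9 CPM in polysomal RNA (-2.55 ± 0.18, adjusted p = 4.94e-05). Both polysomal values were several times below total RNA, the WT difference was -0.08 ± 0.07 and the interaction was -2.46 ± 0.17. After the offset Ccnb1 was at -1.76. The centromere protein gene Cenph fell by 2.91 ± 0.46 and was at -3.93 without polysomal replicate 1. The abundant cyclin gene Ccna2 was at 597 and 608 CPM in total RNA and 538 and 562 CPM in polysomal RNA (-0.13 ± 0.06, adjusted p = 0.0833), and it was called with the spread of total RNA alone, when either polysomal replicate was left out (-0.10 and -0.18). It turned to 0.46 and was called with the GC offset. In the list of DNA replication and entry into S phase, 7 of 28 tested members were higher and 12 lower (median -0.36, and 0.15 with the GC offset). Ccne2, a cyclin of that step, fell by 2.97 ± 0.53 and was at -2.28 without polysomal replicate 1 and -5.36 without polysomal replicate 2. Its transcript GC content is 36.3%, and with the offset it was -1.21 and not called (adjusted p = 0.0787). Cdk4 and Ccnd1, partners in the G1 phase, rose by 0.68 ± 0.05 and 0.57 ± 0.06, and by 0.22 and 0.46 with the offset.

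The linker histone genes Hist1h1a, at 1161 and 1171 CPM in total RNA and 4843 and 4207 CPM in polysomal RNA (1.96 ± 0.08, adjusted p = 2.99e-05), and Hist1h1c, at 1132 and 1155 CPM in total RNA and 4575 and 3938 CPM in polysomal RNA (1.90 ± 0.08), were the most abundant of the list and both rose. Their WT differences were 0.33 ± 0.02 and 0.28 ± 0.02, and the interactions 1.62 ± 0.08 and 1.61 ± 0.08. Under the GC offset they were at 1.36 and 1.25. H2afz, a variant histone whose message is polyadenylated, fell from 90.6 and 87.2 to 20.4 and 14.8 CPM (-2.36 ± 0.19). Over the whole list of core and linker histones, 21 of 47 tested members were higher and 20 lower (median 0.06, and -0.24 with the GC offset). Many core histone genes are near identical, so reads may be split between them. Among Polycomb and other chromatin regulators, 13 of 32 tested members were higher and 14 lower (median -0.20, and -0.01 with the GC offset), with Rnf2 and Bmi1, both of Polycomb repressive complex 1, at -1.74 ± 0.16 and -1.24 ± 0.09. Bmi1 was at -0.05 and not called with the offset.

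The knockout genes and the let-7 axis came next. Lin28b (minus strand, chromosome 10 from 45376620 to 45486395) was at 68.8 and 78.8 CPM in total RNA and 41.0 and 30.2 CPM in polysomal RNA (-1.07 ± 0.19, adjusted p = 0.00162), with a WT difference of -0.34 ± 0.05 and an interaction of -0.74 ± 0.17. With GC content as an offset it was 0.10 and not called. Lin28a (minus strand, chromosome 4 from 134003330 to 134018841) was at 9.38 and 11.1 CPM in total RNA and 15.4 and 14.6 CPM in polysomal RNA (0.55 ± 0.27, adjusted p = 0.0914). In WT total RNA, on the scale of the WT fit, Lin28b was at 198 and 189 CPM and Lin28a at 113 and 111 CPM. Reads of both genes thus remained in dKO, at lower levels. Exon positions of the remaining reads cannot be seen in gene counts. let-7 microRNAs recognise messages by bases 2 to 8, the seed, shown in capitals in the mature sequences from RefSeq (GRCm38.p6). After them come stretches of 30 bases from the 3′ untranslated regions of Hmga2 and Lin28b, with the letters complementary to the seed in capitals.
mmu-let-7a-5p: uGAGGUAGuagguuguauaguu
mmu-let-7g-5p: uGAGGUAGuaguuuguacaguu
Hmga2: gacattcaatttCTACCTCagcatcagttg
Lin28b: cgggcgggaagtCTACCTCatgcaagcaca
Hmga2, a chromatin protein of progenitors, and Lin28b each hold 4 such matches. Hmga2 was at 134 and 139 CPM in total RNA and 79.4 and 83.6 CPM in polysomal RNA (-0.74 ± 0.10, adjusted p = 6.36e-04). Its WT difference was 0.09 ± 0.03 and the interaction -0.83 ± 0.09, and with the offset it was -0.10 and not called.

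Genes with a let-7 seed match differed little from the rest. Of 5492 tested genes with an annotated 3′ untranslated region, 551 (10.03%) hold the letters CTACCTC at least once on the sense strand. Their median log2 difference was -0.24, with 203 higher and 257 lower, against -0.11 for the 4941 without a match, with 2094 higher and 2120 lower. The 82 genes with 2 or more matches had a median of -0.30. Genes with a match had longer 3′ untranslated regions (median 2440 against 1064 bases) and a lower GC content (47.3%, against 49.8% over all genes with such a region), and with the GC offset the medians were 0.09 and 0.06. In the list of let-7 targets 30 of 37 tested members hold a match. Of 37 tested members, 10 were higher and 19 lower on polysomes, with a median log2 difference of -0.22. After the GC offset 12 were higher and 6 lower, and the median was 0.08. For microRNA processing and silencing, 0 of 17 tested members were higher and 12 lower, with a median of -0.57. With the GC offset 6 were higher and 3 lower, and the median was 0.04. Before the offset, DESeq2 and limma-voom also called 0 of these higher, as did an unadjusted p below 0.05 in edgeR. The shares of all genes tested were 41.6% higher and 43.2% lower, and 25.1% and 19.2% with the offset. Cnot7 and Cnot6, which remove poly(A) tails, were at -2.05 ± 0.08 and -0.94 ± 0.08, and Cnot6 turned to 0.32 with the offset. Ago1, an Argonaute protein, was at -0.10 ± 0.06 (adjusted p = 0.143), and was called with the spread of total RNA alone, when either polysomal replicate was left out.

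Neural progenitor messages were more often higher on dKO polysomes. Of 36 tested members, 22 were higher and 7 lower on polysomes, with a median log2 difference of 0.32. Under the GC offset 12 were higher and 11 lower, and the median was -0.01. All genes tested had shares of 41.6% higher and 43.2% lower as fitted, and 25.1% and 19.2% with the offset. Nes, the intermediate filament nestin of progenitors, was at 1088 and 1100 CPM in total RNA and 2715 and 2540 CPM in polysomal RNA (1.26 ± 0.06, adjusted p = 2.99e-05). In WT it was lower, at -0.16 ± 0.02, the interaction was 1.42 ± 0.06, and with the offset it was 0.58. Dll3, a Notch ligand, was at 52.6 and 53.2 CPM in total RNA and 192 and 132 CPM in polysomal RNA (1.60 ± 0.18), and Hes6, a regulator of neurogenesis, at 250.3 and 259.9 CPM in total RNA and 834 and 655 CPM in polysomal RNA (1.54 ± 0.11). Vim, the filament protein vimentin, was at 0.33 ± 0.05, and at -0.20 with the offset. Neuronal genes had 14 of 34 higher and 14 lower (median 0.10, and -0.08 with the GC offset), shares near those of all genes tested. Dcx, the microtubule protein of migrating neurons, was at 1324 and 1355 CPM in total RNA and 618 and 743 CPM in polysomal RNA (-0.98 ± 0.09, adjusted p = 1.19e-04). Its WT difference was 0.09 ± 0.02 and the interaction -1.06 ± 0.10, and with the offset it turned to 0.19. Elavl2, a neuronal RNA-binding protein, fell by 1.77 ± 0.11 and was at -1.29 with the offset. Neurod4, a proneural factor, fell by 1.96 ± 0.18, and Map1b, a microtubule protein, fell by 0.36 ± 0.05 (0.07 with the offset). Axon guidance genes had 14 of 24 higher and 7 lower (median 0.49, and -0.07 with the GC offset), with the secreted ligand gene Sema3a at -1.87 ± 0.29.

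Signalling genes of the Shh, Wnt, BMP and Notch response were mostly higher before the offset. Of 36 tested members, 27 were higher and 8 lower on polysomes, with a median log2 difference of 0.61. Adjusted for GC content, 12 were higher and 5 lower, and the median was 0.08. Msx1, a homeobox target of BMP signals, was at 24.96 and 30.2 CPM in total RNA and 122 and 130.3 CPM in polysomal RNA (2.20 ± 0.15, adjusted p = 4.44e-05), and at 1.33 with the offset. Hhip, which sequesters Hedgehog ligands, fell by 2.10 ± 0.46 and was at -3.08 without polysomal replicate 1. Ctnnb1, which encodes beta-catenin, was at -0.28 ± 0.06 and not called when either total replicate was left out (adjusted p = 0.0565 and 0.0646). In brain patterning 16 of 22 tested members were higher and 6 lower (median 0.67, and -0.05 with the GC offset). En2 of the midbrain and hindbrain rose by 1.48 ± 0.10, Irx3 by 1.58 ± 0.12, and Pou3f2, a neural POU factor, fell by 0.89 ± 0.07. For Hox genes, 7 of 15 tested members were higher and 2 lower (median 1.10, and 0.31 with the GC offset). DESeq2 called 5 higher and 2 lower. The members summed to 358 and 344 CPM in total RNA and 388 and 367 CPM in polysomal RNA, so the median rests on members with few counts. Hoxc8 had 0 and 0 counts in total RNA and 19 and 13 in polysomal RNA, so it was at least 27.2-fold higher, with the same floor of 3 counts over both libraries. It passed the filter on low counts only through the polysomal libraries. Hoxa5, among the more abundant members, was at 0.13 ± 0.14 (adjusted p = 0.387). In the insulin, IGF and mTOR pathway, 10 of 23 tested members were higher and 9 lower (median -0.15, and 0.17 with the GC offset). The growth factor gene Igf2 was at 1298 and 1278 CPM in total RNA and 899 and 855 CPM in polysomal RNA (-0.55 ± 0.06, adjusted p = 1.91e-04). It was lower on WT polysomes too, at -0.73 ± 0.03, and the interaction was 0.17 ± 0.06. Igfbp2, an IGF-binding protein, rose by 1.68 ± 0.08.

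Messages for secreted matrix were higher. Of 25 tested members, 20 were higher and 2 lower on polysomes, with a median log2 difference of 0.73. On the GC-adjusted scale 4 were higher and 3 lower, and the median was 0.10. For all genes tested the shares were 41.6% higher and 43.2% lower as fitted, and 25.1% and 19.2% with the offset. Col1a1, a fibrillar collagen, was at 96.3 and 82.5 CPM in total RNA and 361 and 298 CPM in polysomal RNA (1.88 ± 0.13, adjusted p = 4.71e-05), and the cartilage collagen gene Col2a1 at 79.4 and 84.2 CPM in total RNA and 315 and 256 CPM in polysomal RNA (1.80 ± 0.12). Both were lower on WT polysomes, at -0.39 ± 0.10 and -0.50 ± 0.06, and the interactions were 2.27 ± 0.20 and 2.29 ± 0.13. Once GC content was an offset, they were at 0.97 and 0.70. For chaperones of the endoplasmic reticulum, 8 of 21 tested members were higher and 9 lower (median -0.01, and 0.05 with the GC offset). The translocon subunit gene Sec61b fell by 1.70 ± 0.17, against the direction of its GC content (57.4%), and was at -2.50 with the offset. The co-chaperone gene Dnajb9 fell by 1.93 ± 0.17.

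Of the immediate early genes, which respond within minutes to signals, 8 of 10 tested members were higher and 0 lower, with a median of 1.27. With the GC offset 1 was higher and 0 lower, and the median was 0.36. Before the offset, 0 of these were lower by DESeq2, by limma-voom and at an unadjusted p below 0.05 in edgeR. The shares of all genes tested were 41.6% higher and 43.2% lower, and 25.1% and 19.2% with the offset. Jund, a subunit of AP-1, was at 619 and 608 CPM in total RNA and 1728 and 1464 CPM in polysomal RNA (1.38 ± 0.09) and at 0.13, not called, with the offset. Junb was at 6.65 and 3.50 CPM in total RNA and 35.8 and 13.8 CPM in polysomal RNA (2.26 ± 0.53), and at 1.44 without polysomal replicate 1. Ier5 rose by 1.48 ± 0.13 and by 1.16 with the offset. For targets and partners of Atf4, the transcription factor of amino acid stress, 7 of 12 tested members were higher and 2 lower (median 0.63, and 0.15 with the GC offset). Atf4 itself was at 0.14 ± 0.06 (adjusted p = 0.0669), and was called with the spread of total RNA alone, when either polysomal replicate was left out (0.15 and 0.12), and with the GC offset it was -0.40 and called. Cebpb rose by 1.70 ± 0.34 but was not called without total replicate 2 (adjusted p = 0.0824). Among p53 targets 4 of 12 tested members were higher and 6 lower (median -0.49, and 0.05 with the GC offset).

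Splicing factors were among the lists most often lower. Of 46 tested members, 9 were higher and 31 lower on polysomes, with a median log2 difference of -0.63. With the GC offset 17 were higher and 12 lower, and the median was 0.14. Shares over all genes tested were 41.6% higher and 43.2% lower as fitted, and 25.1% and 19.2% with the offset. Hnrnpa3 was at 95.3 and 93.6 CPM in total RNA and 14.6 and 17.5 CPM in polysomal RNA (-2.54 ± 0.16, adjusted p = 4.07e-05), and at -1.82 with the offset. Hnrnpa0, a single-exon gene of the same family, rose by 1.05 ± 0.10, and Srsf1 fell by 0.40 ± 0.06. Proteasome subunits had 3 of 23 higher and 9 lower (median -0.11, and 0.31 with the GC offset), with Psmb5 and Psmc3 at 1.64 ± 0.19 and 1.496 ± 0.14. Cytosolic chaperones had 4 of 20 higher and 11 lower (median -0.28, and 0.09 with the GC offset). Hsp90ab1 was at 0.21 ± 0.05 and not called when either total replicate was left out (adjusted p = 0.120 and 0.130). Glycolysis had 2 of 6 higher and 3 lower (median -0.08, and -0.15 with the GC offset), with Pkm at 1.11 ± 0.07 and Pgk1 at -1.48 ± 0.30, and cholesterol synthesis had 6 of 14 higher and 7 lower (median -0.23, and 0.06 with the GC offset).

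Long noncoding RNAs, many of which stay in the nucleus, were the list with the lowest median. Of 13 tested members, 2 were higher and 11 lower on polysomes, with a median log2 difference of -1.79. After the GC offset 2 were higher and 6 lower, and the median was -0.17. Xist, which coats the inactive X chromosome, was at 152 and 158 CPM in total RNA and 34.6 and 53.2 CPM in polysomal RNA (-1.80 ± 0.19, adjusted p = 1.74e-04), and at -0.74 with the offset. H19, the imprinted RNA next to Igf2, was at 1367 and 1343 CPM in total RNA and 405 and 380.5 CPM in polysomal RNA (-1.79 ± 0.06, adjusted p = 2.99e-05). Its WT difference was larger, -2.46 ± 0.03, and the interaction was 0.67 ± 0.06. It was at -2.49 with the offset. Miat was one of the 2 that rose (0.47 ± 0.08), and turned to -0.17 with the offset. Structured noncoding RNAs had 6 of 10 higher and 3 lower (median 0.89, and 0.37 with the GC offset). The RNase P RNA gene Rpph1, the most abundant of them that fell, was at 31116 and 30919 CPM in total RNA and 16192 and 13146 CPM in polysomal RNA (-1.08 ± 0.09). By annotated class, chosen after the values were seen, 33 long intergenic RNAs had a median of -1.03, and of -0.40 with the offset. Of 15 shared rows annotated as microRNAs, 11 were tested, with a median of 1.99, and of 1.09 with the offset. As fitted 8 were higher and 0 lower (0 lower by DESeq2, limma-voom or an unadjusted p below 0.05 in edgeR too). With the offset 5 were higher and 0 lower. Over all genes tested, 41.6% were higher and 43.2% lower as fitted, and 25.1% and 19.2% with the offset. The microRNA rows summed to only 166 and 182 CPM in total RNA, against 3239 and 1703 CPM in polysomal RNA. Mir6236, whose values are uncertain, held 2558 and 1194 CPM of the polysomal sums. Mir320 was at 1.09 and 0.461 CPM in total RNA, so such rises rest on few total RNA counts. Gene symbols of Zfp and a number, also chosen after the values were seen, mostly encode zinc finger transcription factors. Of 158 such genes 44 were higher and 104 lower, with a median of -0.84, a median GC content of 42.2% and a median of 0.04 with the offset.

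Markers of other cell types were summed in each library. Erythroid markers, 6 of 20 with a row, summed to 3897 and 3887 CPM in total RNA and 4905 and 4940 CPM in polysomal RNA, and 2 of 6 tested members were higher and 3 lower (median -0.29, and -0.69 with the GC offset). The embryonic globin genes Hbb-y and Hba-x were at 0.62 ± 0.05 and -0.20 ± 0.06, the latter not called when either total replicate was left out (adjusted p = 0.137 and 0.181). Mesenchyme markers, 10 of 27 with a row and 4 of them collagens of the matrix list, summed to 654 and 668 CPM in total RNA and 1719 and 1427 CPM in polysomal RNA. They had 7 of 10 higher and 2 lower (median 1.24, and 0.34 with the GC offset), with Col3a1 at 1.49 ± 0.10. Endothelial and pericyte markers summed to 105 and 108 CPM in total RNA and 256 and 221 CPM in polysomal RNA, with 3 of 5 higher and 1 lower (median 0.98, and 0.31 with the GC offset). Cldn5 of endothelial tight junctions rose by 1.80 ± 0.17 and Emcn fell by 2.25 ± 0.33. Macrophage markers, 4 of 20 with a row, summed to 79.4 and 69.8 CPM in total RNA and 51.5 and 58.4 CPM in polysomal RNA, with 1 of 4 higher and 2 lower (median -0.22, and 0.12 with the GC offset). Neural crest and glial precursor markers, 4 of 17 with a row, summed to 537 and 524 CPM in total RNA and 455 and 476 CPM in polysomal RNA, with 2 of 4 higher and 2 lower (median 0.17, and 0.04 with the GC offset), and none of the 17 epithelial markers had a row in both tables. Choroid plexus and roof plate genes had 5 of 9 higher and 2 lower (median 0.78, and -0.00 with the GC offset). Their sum went the other way, from 1683 and 1672 CPM in total RNA to 1406 and 1424 CPM in polysomal RNA. The most abundant members, Igf2 and Otx2, were at -0.55 and -0.98. The mesenchyme sum was higher in both polysomal libraries, beside the rise of the matrix list, and its part in that rise was not tested.

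In the tenth of genes with the shortest coding regions (114 to 528 bases) 205 were higher and 277 lower, with a median of -0.32. In the tenth with the longest (3672 to 24099 bases) 296 were higher and 205 lower, with a median of 0.41. With the GC offset these medians were -0.16 and 0.08. Where genes averaged 50 CPM or more, the 4 shortest were Ost4 (37 codons before the stop) at 0.36 ± 0.12, Tmsb4x (50) at -0.30 ± 0.05, Rpl39 (51) at -2.84 and Atp5e (52) at 1.21. Ost4 was not called when either total replicate was left out (adjusted p = 0.295 and 0.149). Tmsb4x, the actin-binding thymosin, was at 3993 and 4064 CPM in total RNA and 3339 and 3212 CPM in polysomal RNA, with a WT difference of 0.17 ± 0.02 and an interaction of -0.47 ± 0.05. The 4 longest were Birc6 at -0.46 ± 0.10, Ubr4 at 0.70 ± 0.10, Kmt2d at 0.78 ± 0.07 and Ahnak at 0.62 ± 0.10. Kmt2d, a histone methyltransferase with 5588 codons, was at 279.9 and 268 CPM in total RNA and 493 and 452 CPM in polysomal RNA, lower on WT polysomes, at -0.39 ± 0.04, with an interaction of 1.17 ± 0.08. After the offset Tmsb4x was at 0.14, Birc6 at 0.03 and Kmt2d at -0.09, none of them called.

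Among the genes of this list, the dKO difference between fractions was not a larger copy of the WT one. Across 5724 genes tested in both, the 2 differences had a Spearman rho of -0.09. They share no library, but the list has a gap in the dKO to WT ratio of polysomal counts. That ratio draws on polysomal libraries of both differences, so the rho is conditional on the list and not an independent comparison. The interaction of genotype and fraction, fitted over all 8 libraries, was called for 5171 of 5780 genes (89.5%). That share is conditional on the same list of genes, and it contains the gap described above, so a call for a single gene has to be read against it. Over all genes tested, 16.5% were higher and 18.1% lower in WT, and 41.6% and 43.2% in dKO (25.1% and 19.2% with the GC offset). Proteasome subunits had 15 higher and 0 lower of 23 in WT (median 0.22), and 3 and 9 in dKO. With the GC offset the dKO counts were 11 and 0 (median 0.31). The offset was fitted in dKO only, so counts with it and the WT counts are on unlike scales. Respiratory chain genes had 24 higher and 1 lower of 40 in WT, and 17 and 15 in dKO (13 and 12 with the offset). Matrix genes had 1 higher and 10 lower of 25 in WT, and 20 and 2 in dKO (4 and 3 with the offset). The interaction was called for 16, 38 and 24 members of these lists.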

How the data were processed

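Total and polysomal RNA of mouse brain and neural tube at E11.5 was sequenced in 2 replicates for each of 2 genotypes. The authors deposited raw read counts, 1 table for each kind of RNA, with gene symbols in rows and libraries in columns. Trizol extraction and a strand-specific NEBNext kit are stated per the labels' protocols. Per the submitters' processing notes, the tools were FastQC, TopHat and HTSeq, and 3 build names appear (mm9, mm10, GRCm38) without roles. How polysomes were collected, the strand setting, the annotation and how genes were chosen for the polysomal table is not given in the sources used here.

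Tables were joined by symbol. 4 rows whose symbols had become dates could not be told apart and were left out, giving 5802 shared genes. Library sizes are sums over those genes, without rows that name no gene. The 4 dKO libraries were fitted alone with edgeR 4.0.16 in R 4.3.3 (quasi-likelihood F test, filterByExpr, TMM scaling), with Benjamini-Hochberg adjustment over all genes tested and a threshold of 0.05. SE is the absolute log2 difference divided by the square root of F. The WT difference was fitted on the 4 WT libraries and the interaction on all 8. The script was tested on simulated counts. CPM use TMM-scaled sizes.

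Transcript features and coding sequences came from GENCODE M21 (GRCm38), with 1 transcript per gene (the longest coding), and 5728 of 5761 tested genes had a GC value. MicroRNA sequences are from RefSeq. For the GC offset, chosen after the data were seen, a loess curve (span 0.5) of each library's log2 deviation from the dKO total RNA mean on GC content entered the fit. Other alternatives were RLE, upper-quartile or no scaling, the 3 ribosomal RNA related rows left out, DESeq2 1.42.0, limma-voom (limma 3.58.1), other filters, a block for the replicate number, a minimum log2 difference of 1, each dKO library left out, and all 8 libraries in 1 fit.

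The comparison, its members, the 39 gene lists and the tests were chosen with earlier results of these data known. Named genes are first Lin28a and Lin28b. Then come the 15 largest rises and 15 largest falls among called genes averaging 5 CPM or more without overlap of the fractions. Predicted genes, Rik clones and symbols with -ps were left out of these, which removed 1 rise and 1 fall, both Rik clones. Zxda, annotated as a pseudogene, has no such symbol and was kept. Each list adds up to 2 called members with the largest difference and the 2 most abundant. The 4 shortest and 4 longest coding regions where genes averaged 50 CPM or more complete the rule. The text prints part of these, some genes and sequences are not reported here, and Hmga2, Sox2, Tubb3 and Xist fall outside it and were chosen with their values known. The lists describe and were not tested as sets.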

Additional observations from a re-analysis of the deposited data

Results flagged for a closer look

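For 25 genes described in the report, the polysomal to total difference differed between dKO and WT by a test of the difference itself, the interaction of genotype and fraction over all 8 libraries (edgeR quasi-likelihood test, log2 ± SE). They were picked with the values known, and 89.5% of all genes tested pass this test, in a table whose genes fall on both sides of a gap in the dKO to WT ratio.

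The rows with the largest values were Mir6236 at 8.06 ± 0.66 (adjusted p = 3.28e-06), Rn45s at 7.10 ± 0.40 and Lars2 at 6.55 ± 0.40. All 3 were higher on polysomes in dKO and lower in WT. Positive values were also those of Hoxc10 (3.96 ± 0.79), Cebpa (2.61 ± 0.43), Stc2 (2.61 ± 0.47), Exosc6 (2.31 ± 0.21), Col2a1 (2.29 ± 0.13) and Col1a1 (2.27 ± 0.20). The linker histone genes Hist1h1a and Hist1h1c were at 1.62 ± 0.08 and 1.61 ± 0.08, Atp5e at 1.58 ± 0.08, Nes at 1.42 ± 0.06 and Kmt2d at 1.17 ± 0.08. H19 and Igf2, lower on polysomes in both genotypes, were at 0.67 ± 0.06 (adjusted p = 5.96e-06) and 0.17 ± 0.06 (adjusted p = 0.0173), a smaller fall in dKO.

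Negative values were those of Pigf (-4.25 ± 0.30), Gt(ROSA)26Sor (-4.17 ± 0.33), Rpl39 (-2.96 ± 0.13), Ccnb1 (-2.46 ± 0.17) and Ap3s1 (-1.70 ± 0.17). Dcx was at -1.06 ± 0.10, Hmga2 at -0.83 ± 0.09, Lin28b at -0.74 ± 0.17 (adjusted p = 0.00208) and Tmsb4x at -0.47 ± 0.05. Groups of 2 libraries are too small for a test of single outlying libraries.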

How the results depend on the processing

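The number of genes called in dKO was 4884 (2398 higher, 2486 lower). It lay between 4582 (DESeq2) and 5202 (all 8 libraries) under other scalings, tools and filters, all within 1.5 times of that count. DESeq2 split its calls into 2375 higher and 2207 lower, and no scaling factors gave 2146 and 2657. Leaving out 1 dKO library gave 3665 to 5185 calls, with 1843 to 2486 higher and 1822 to 2699 lower. A log2 difference of at least 1 left 2051 (972 higher, 1079 lower), and transcript GC content as an offset 2552 (1445 higher, 1107 lower). Across genes, the deviations of replicate 1 in total and polysomal RNA had a correlation of 0.0404. It rests on a single pair of libraries per fraction and cannot tell if replicate numbers pair the fractions. The replicate block gave 4879 calls, 2378 higher and 2501 lower. The block changed no call among the 118 named genes.

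With the GC offset 17 named genes changed sign: Lin28b (0.10), Rpl8 (-0.36), Eef2 (-0.44), Eif4g2 (0.55), Ncl (0.68), Cox4i1 (-0.18), Ccna2 (0.46), Cnot6 (0.32), Vim (-0.20), Map1b (0.066), Dcx (0.19), Tubb3 (-0.77), Atf4 (-0.40), Miat (-0.17), Tmsb4x (0.14), Kmt2d (-0.089) and Birc6 (0.027). So did the medians of 20 lists: large-subunit ribosomal proteins (-0.31), ribosome biogenesis (0.18), DNA replication and G1/S (0.15), mitosis and spindle (0.18), core and linker histones (-0.24), let-7 targets (0.079), microRNA processing and silencing (0.037), neural progenitors and radial glia (-0.010), neuronal differentiation (-0.081), axon guidance ligands and receptors (-0.066), forebrain, midbrain and hindbrain patterning (-0.045), insulin, IGF and mTOR pathway (0.17), ER chaperones and unfolded protein response (0.051), cytosolic chaperones and CCT chaperonin (0.092), proteasome subunits (0.31), spliceosome and hnRNP proteins (0.14), cholesterol synthesis (0.055), p53 targets (0.055), macrophage markers (0.12) and choroid plexus and roof plate (-0.0014). Under other settings Sox2 was at 0.0027 (RLE), 0.0032 (DESeq2) and from -0.16 to 0.034 with 1 library left out, and Tubb3 at -0.055 (no scaling factors). The list medians that crossed 0 were those of the respiratory chain (0.0064 with RLE, -0.11 to 0.017 with 1 library left out), histones (-0.074) and neuronal differentiation (-0.031) without scaling factors, ER chaperones (0.046 with RLE, -0.067 to 0.0070 with 1 library left out) and macrophage markers (-0.37 to 0.042 with 1 library left out). The cause was not tested. Depth limits the rows with few counts in 1 fraction, among them Rpl10, Snhg3 and most of the largest falls in polysomal RNA and Hoxc8 in total RNA.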
